A study of Mus musculus with 24 samples.

Results

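Brca1, Brca2 and 7 genes that work beside them in the repair of DNA breaks were described in the mammary glands of 24 aged transgenic mice. The 9 genes, Brca1, Bard1, Palb2, Brca2, Rad51c, Rad54l, Brip1, Fancd2 and Fanci, were taken by symbol from a table of 55487 genes, and each matched 1 row. They were picked by name, with earlier results of these data known, and the rule itself uses no measured value.

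Homologous recombination repairs a broken DNA double strand by copying the sister chromatid, so it works mainly in cells that are replicating or have replicated their DNA. Brca1 and Bard1 form a ubiquitin ligase that acts at the break, and Palb2 joins Brca1 to Brca2, which acts on the single-stranded DNA at the break. In the Fanconi pathway, which clears crosslinks between DNA strands, Fancd2 and Fanci form a clamp on DNA. Inherited loss of BRCA1, BRCA2 or PALB2 function is known in humans as a cause of breast cancer risk, and the transcripts of many of these genes peak around S phase.

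The mice carried an MMTV-rtTA activator with either tet-op-Esr1, encoding oestrogen receptor alpha, or tet-op-CYP19A1, encoding aromatase, the enzyme that makes oestrogens. The youngest mice of each line were 18 months old, with the transgene induced for 6 months. The others were 20 months old, with 8 months of induction, and had no drug, tamoxifen (25 mg) or letrozole (2.5 mg), each drug released over 60 days from an implant placed at 18 months. Tamoxifen is a modulator of the oestrogen receptor and letrozole inhibits aromatase. There were 3 mice in each of the 8 groups, named by the labels as biological replicates. Sample names at 18 months carry the tag 6MDoxy, read here as 6 months of doxycycline, and names at 20 months do not state the inducer. The samples at 20 months with no drug in their labels are called untreated here, and carry a tag, PLA, that the labels do not explain. Between 18 months and untreated 20 months, age, length of induction and sample tag change together and cannot be told apart. A difference called age or with age in this report covers all of them. All groups had the activator and an induced transgene, the MMTV promoter limits induction to the cells in which it is active, and no group lacked a transgene. Values are TPM, a share of all the RNA in a library corrected for transcript length. TPM does not retain the number of reads, so depth is unknown.

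The libraries held unequal tissue and RNA. Genes at 1 TPM or more numbered 14410 to 17684 per library. Ribosomal RNA made up 31.2% of the total in replicate 2 of the untreated Esr1 mice at 20 months, and between 0.0145% and 3.61% in the other 23 libraries. The muscle actin gene Acta1 was at 38.34 TPM in replicate 1 of the Esr1 mice at 18 months and 6.51 TPM in replicate 3 of the CYP19A1 mice at 18 months, against 852.71 to 7084.55 TPM elsewhere. The gland was recognisable by its epithelium in every library, with Epcam from 10.76 to 136.13 TPM and Krt8 from 10.75 to 146.25 TPM. Esr1 was at 6.98 to 16.05 TPM in untreated Esr1 mice at 20 months and 13.31 to 19.19 TPM in their CYP19A1 counterparts. These levels do not separate the lines. Mouse Cyp19a1 was at 0.27 TPM or less everywhere, and a human CYP19A1 transgene was not analysed here, so lines are named by their labels.

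The start-site sequences of 4 of the genes are shown first, as a description. The region around the start was searched for letters that cell-cycle regulators of the E2F family are known to bind. Whether these letters bear on the levels of the genes was not tested. Each runs from 250 bases before to 50 bases after an annotated start (RefSeq, GRCm38.p6), 5′ to 3′ on the gene's strand, with the searched E2F letters in capitals.
Brca1, chr11:101551906-101552205, minus strand: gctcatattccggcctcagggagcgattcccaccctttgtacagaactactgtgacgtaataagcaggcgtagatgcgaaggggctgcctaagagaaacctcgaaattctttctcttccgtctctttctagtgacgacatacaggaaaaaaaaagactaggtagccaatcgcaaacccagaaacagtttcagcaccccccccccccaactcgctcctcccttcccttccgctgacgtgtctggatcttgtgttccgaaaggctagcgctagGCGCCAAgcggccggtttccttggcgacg
Brip1, chr11:86201144-86201443, minus strand: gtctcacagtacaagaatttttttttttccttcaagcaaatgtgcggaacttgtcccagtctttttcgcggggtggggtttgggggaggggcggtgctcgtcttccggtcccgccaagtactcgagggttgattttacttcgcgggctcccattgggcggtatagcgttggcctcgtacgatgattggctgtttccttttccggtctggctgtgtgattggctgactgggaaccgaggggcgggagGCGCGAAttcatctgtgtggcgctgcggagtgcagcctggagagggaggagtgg
Brca2, chr5:150522371-150522670, plus strand: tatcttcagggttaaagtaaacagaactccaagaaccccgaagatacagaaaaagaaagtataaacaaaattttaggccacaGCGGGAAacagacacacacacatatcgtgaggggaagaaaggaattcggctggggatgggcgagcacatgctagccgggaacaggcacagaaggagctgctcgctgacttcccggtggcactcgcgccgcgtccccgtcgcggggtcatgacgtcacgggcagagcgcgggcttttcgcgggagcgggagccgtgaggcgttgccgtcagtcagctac
Palb2, chr7:122132897-122133196, minus strand: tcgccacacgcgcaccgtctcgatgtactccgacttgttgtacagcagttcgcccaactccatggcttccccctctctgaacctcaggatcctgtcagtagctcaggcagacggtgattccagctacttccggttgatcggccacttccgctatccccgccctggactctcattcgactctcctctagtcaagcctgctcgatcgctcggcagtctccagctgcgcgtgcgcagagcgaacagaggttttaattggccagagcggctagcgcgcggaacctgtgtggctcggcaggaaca
Brca1 and Brip1 are shown as the genes called with age below, Brca2 as a gene with the letters and a smaller difference, and Palb2 as a gene without them. The first capital letter lies 21 bases after the start in Brca1, 4 bases before it in Brip1 and 168 bases before it in Brca2.

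The E2F letters searched, on both strands, were the run TTCCCGC, the run TTCGCGC, the run TTGCCGC and the run TTGGCGC. At least 1 of these was in the window of 6 of the 8 genes with a RefSeq window, or 75.0%. The 6 were Brca1, Brca2, Bard1, Rad51c, Brip1 and Fanci. Of all 27025 genes with a window 10.9% held them, and of the 11510 of these that passed the filter on low values 18.0% did. The cell cycle homology region letters TTTGAA were in 1 of 8 windows (12.5%), that of Bard1, against 14.9% of the filtered genes. The letters CCAAT were in 4 of 8, those of Brca1, Palb2, Rad54l and Brip1, against 42.5%. Matches of the 3 motifs did not overlap each other in these windows. The median GC content was 57.2% over the 10 windows of the 8 genes and 60.0% over windows of filtered genes. These matches describe letters only.

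**Figure D1:**
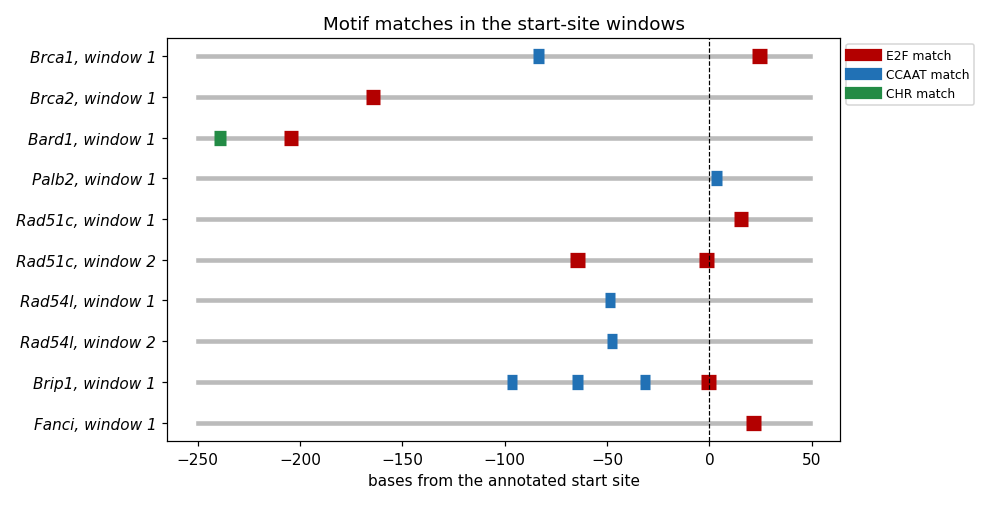
Position of each motif match, in bases from the annotated start, in the 10 windows of the 8 genes; grey bars are windows of 250 bases before to 50 bases after the start, and Rad51c and Rad54l each have 2 annotated starts. E2F matches (red) lie on both sides of the start and are missing from Palb2 and Rad54l.

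Brca1 spans chr11:101488761-101551955. Rad51c and Brip1 are also on chromosome 11, Palb2 and Fanci on 7, Bard1 on 1, Rad54l on 4, Brca2 on 5 and Fancd2 on 6, and all 9 are protein-coding. Each printed window holds the flank before the gene's annotated start and the first 50 bases after it. Several of the genes lie close to another. Brca1 starts 152 bases from Nbr1, an autophagy receptor gene on the opposite strand, Palb2 starts 95 bases from the dynactin gene Dctn5, Rad51c starts 111 bases from Tex14, a testis gene, and Rad54l starts 150 bases from 2510003B16Rik, which was not analysed here. By their RefSeq gene models, Rad54l shares 2849 bases with Lrrc41, Fanci shares 4036 bases with Polg and Fancd2 shares 260 bases with Fancd2os. Lrrc41 and Polg lie on the opposite strand. Noncoding or pseudogene models also overlap Brca2, Brip1, Fancd2 and Fanci. The library kit keeps strand, but no source used here says whether the estimates used it, so values of these genes are uncertain where models overlap.

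All 9 genes were of low abundance. Brca2 was the highest, at a mean of 3.50 TPM over 24 libraries and 2.14 to 6.07 TPM in single libraries. Means of Palb2, Rad54l and Brca1 were 1.38, 1.34 and 1.18 TPM, and those of Fancd2, Brip1, Fanci, Rad51c and Bard1 were 0.720, 0.585, 0.451, 0.409 and 0.315 TPM. TPM is per transcript length, so these levels can be compared between genes. With a filter of at least 1 TPM in at least 3 libraries, 6 of the 9 genes were tested in the main fit (Brca1, Palb2, Brca2, Rad54l, Brip1 and Fancd2), of which Brip1 and Fancd2 passed with exactly 3 libraries. Bard1, Rad51c and Fanci did not pass, and were tested under an alternative filter, a mean of at least 0.25 TPM over all 24 libraries, chosen after their values were seen. Differences are in log2(TPM + 1) with the standard error of the fit. That scale understates the change of low genes. Adjusted p-values are limma's, with Benjamini-Hochberg adjustment over 19325 genes in the main fit or 23108 under the alternative filter, and a gene is said to have fallen or risen only at an adjusted p under 0.05.

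**Figure D2:**
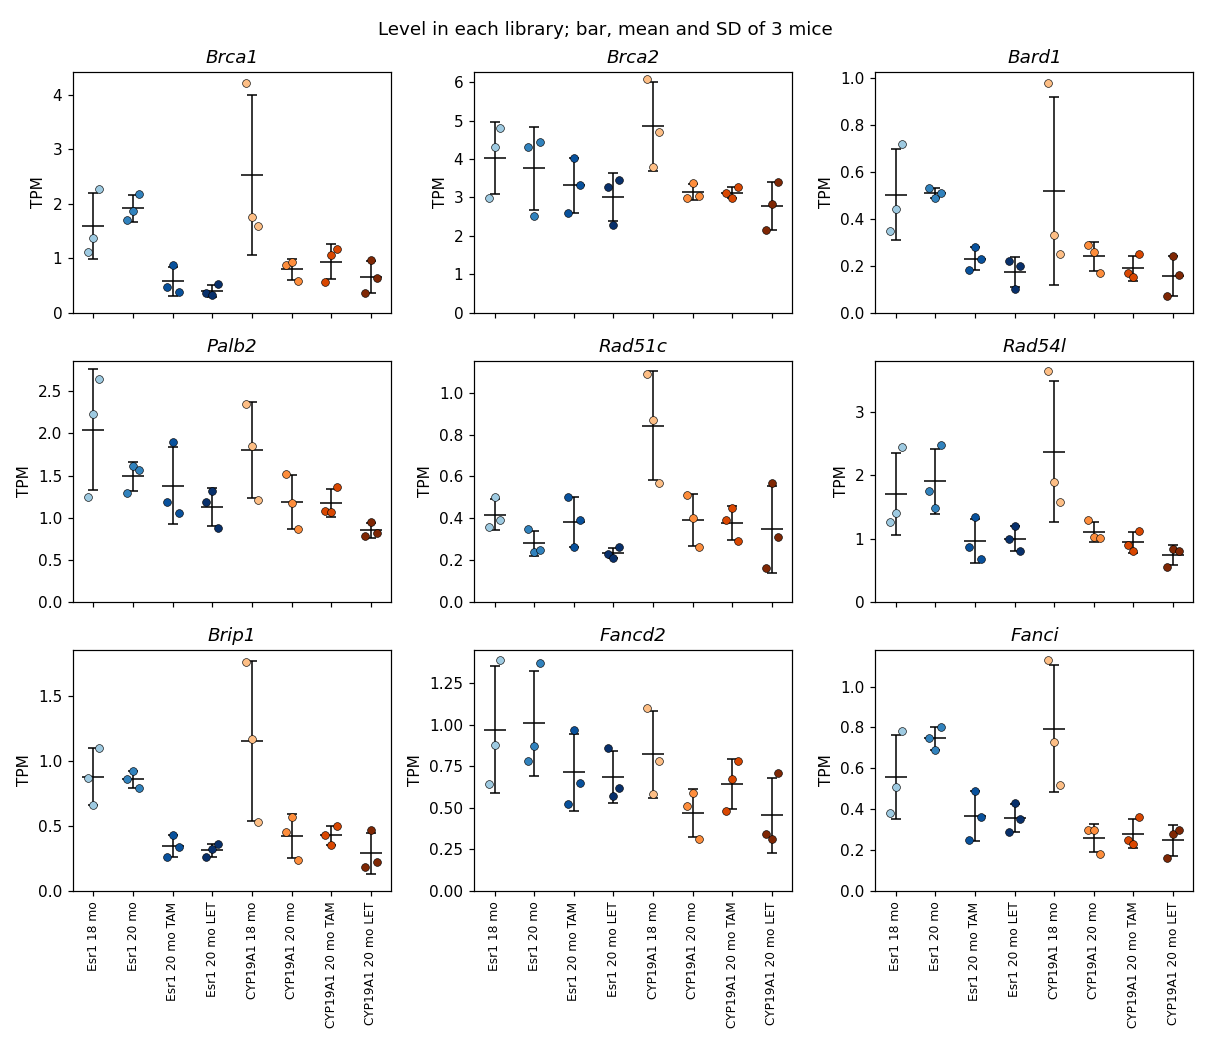
TPM of each gene in each of the 24 libraries, by group (dots), with the mean and SD of 3 mice (bars); TAM is tamoxifen and LET is letrozole. For every gene but Rad51c, the means of both groups at 18 months and of the untreated Esr1 mice at 20 months sit above those of the other 5 groups, and Brca1 runs from 0.32 to 4.23 TPM.

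Brca1 varied most between groups. In the Esr1 line it was at 1.12, 1.38 and 2.28 TPM at 18 months and 1.70, 1.87 and 2.18 TPM at 20 months. With tamoxifen it was at 0.48, 0.88 and 0.38 TPM, and with letrozole at 0.37, 0.32 and 0.53 TPM. All 6 libraries of drug-treated Esr1 mice were thus below every untreated library of that line. In the CYP19A1 line Brca1 was at 4.23, 1.76 and 1.60 TPM at 18 months and 0.88, 0.93 and 0.58 TPM at 20 months. With tamoxifen it was at 0.57, 1.07 and 1.17 TPM, and with letrozole at 0.37, 0.96 and 0.64 TPM. The older CYP19A1 mice were low with or without a drug, and only the libraries at 18 months stood higher.

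Ordered by mean, Brca1 was highest in the CYP19A1 mice at 18 months (2.53 ± 1.47 TPM, SD, n = 3). The untreated Esr1 mice at 20 months (1.92 ± 0.243 TPM) and the Esr1 mice at 18 months (1.59 ± 0.609 TPM) followed. CYP19A1 mice at 20 months came next, at 0.937 ± 0.322 TPM with tamoxifen, 0.797 ± 0.189 TPM untreated and 0.657 ± 0.295 TPM with letrozole. The Esr1 mice with tamoxifen (0.580 ± 0.265 TPM) and with letrozole (0.407 ± 0.11 TPM) were lowest. Neighbours in this order overlapped in all 7 cases, so single steps are not separated. The highest group was 6.22 times the lowest. The same ratio was 3.98 for Brip1, 3.62 for Rad51c, 3.32 for Bard1, 3.24 for Rad54l, 3.22 for Fanci, 2.40 for Palb2, 2.22 for Fancd2 and 1.74 for Brca2.

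A single library was often the extreme. Replicate 1 of the CYP19A1 mice at 18 months was the highest of 24 for 7 of the 9 genes, and replicate 3 of the Esr1 mice at 18 months for Palb2 and Fancd2. Replicate 1 of the CYP19A1 mice with letrozole was the lowest for 7 genes, the exceptions being Brca1 and Fancd2.

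Between 18 and 20 months, Brca1 fell in the CYP19A1 line by 0.90 ± 0.23 on the log2(TPM + 1) scale (limma adjusted p = 0.024), a mean TPM 3.18-fold lower with no overlap between ages. Brip1, a helicase that binds Brca1, fell by 0.57 ± 0.18 (adjusted p = 0.0483), from 1.76, 1.17 and 0.53 TPM to 0.45, 0.57 and 0.24 TPM. The lowest young mouse overlapped the older ones. Brip1 passed the filter through 3 libraries, all from mice at 18 months, and with no filter its adjusted p was 0.0559. These were 2 of the 6 genes tested, where 6.45% of all 19325 genes fell, and 4 of the 6 were lower at an unadjusted p under 0.05, against 23.6% of all genes. In whole glands, fewer cells of a type and less RNA per cell cannot be told apart.

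The other genes of the group lay in the same direction with age in the CYP19A1 line. Rad54l, a motor protein that moves along DNA, was at 3.65, 1.90 and 1.57 TPM at 18 months and 1.29, 1.02 and 1.01 TPM at 20 months. The ages did not overlap, and its difference of -0.63 ± 0.20 just missed the threshold (limma adjusted p = 0.0539). Brca2 was at 6.07, 3.78 and 4.69 TPM and then 2.98, 3.37 and 3.04 TPM, again without overlap (-0.48 ± 0.20, adjusted p = 0.117). Palb2 (-0.35 ± 0.19, adjusted p = 0.214) and Fancd2 (-0.30 ± 0.18, adjusted p = 0.253) overlapped between ages.

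Under the filter on the mean, Fanci and Rad51c fell as well. Fanci, the partner of Fancd2, was at 1.13, 0.73 and 0.52 TPM at 18 months and 0.30, 0.30 and 0.18 TPM at 20 months (-0.50 ± 0.12, limma adjusted p = 0.0222). Rad51c, an ATPase of homologous recombination, was at 1.09, 0.87 and 0.57 TPM and then 0.51, 0.40 and 0.26 TPM (-0.40 ± 0.12, adjusted p = 0.0449). Bard1 was at 0.98, 0.33 and 0.25 TPM and then 0.29, 0.26 and 0.17 TPM, so its difference lay largely in 1 young mouse (-0.26 ± 0.13, adjusted p = 0.20). With this filter 4 of the 9 genes fell, where 5.05% of 23108 genes did. The ages did not overlap for 5 of the 9, against 30.6% of genes lower without overlap. The median difference of the 9 genes was -0.48, and that of all genes -0.19. With no filter on low values, Fanci was called and Rad51c was not.

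This age comparison rested on few mice. Without replicate 1 of the CYP19A1 mice at 18 months, the Brca1 difference was -0.58 (adjusted p = 0.143), and no gene of the group was called. Leaving out replicate 2 or 3 of the CYP19A1 mice at 20 months also ended the Brca1 call (limma adjusted p = 0.0511 and 0.136). The call also ended with only the 2 ages of this line fitted (adjusted p = 0.0852) and with scores of muscle, luminal and lymphoid markers as covariates (-0.53, adjusted p = 0.456). That covariate fit moved the median of all genes from -0.225 to 0.019, and the calls over all genes from 1827 to 188. The Brip1 call was lost in 5 of the 6 fits that left out a mouse and in 7 of 10 other alternatives. Without the 3 libraries with high ribosomal RNA or low Acta1, Brca1, Brip1, Palb2 and Rad54l fell, and the Brca1 difference was -1.09 (adjusted p = 0.00551). Scaling also mattered to the rest of the transcriptome. As deposited, 1246 genes fell and 581 rose, and with median-ratio scaling 387 fell and 1346 rose, while Brca1 still fell by 0.73 (adjusted p = 0.0279).

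In the Esr1 line no gene of the group was called between 18 and 20 months, where limma called 0.00517% of genes lower. No gene of the group was lower at an unadjusted p under 0.05 either, against 5.86% of all genes. Rad51c, at 0.35, 0.24 and 0.25 TPM at 20 months, was lower without overlap, as were 4.85% of genes (-0.15 ± 0.12, adjusted p = 0.809 under the filter on the mean). Brca1 differed by 0.19 ± 0.23 (adjusted p = 0.842) and Palb2, the largest difference in size, by -0.26 ± 0.19 (adjusted p = 0.741). The median over the 9 genes was 0.014, beside -0.116 for all genes. The difference between the lines in the age effect was -1.10 ± 0.32 for Brca1, with an unadjusted p of 0.00294 and a limma adjusted p of 0.44, so it did not pass over all genes, of which 0.00517% did. At an unadjusted p under 0.05, 3 of the 6 genes were lower in this contrast, against 5.77% of genes. For Rad54l it was -0.75 ± 0.29 (adjusted p = 0.497) and for Brip1 -0.56 ± 0.25 (adjusted p = 0.561).

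**Figure D3:**
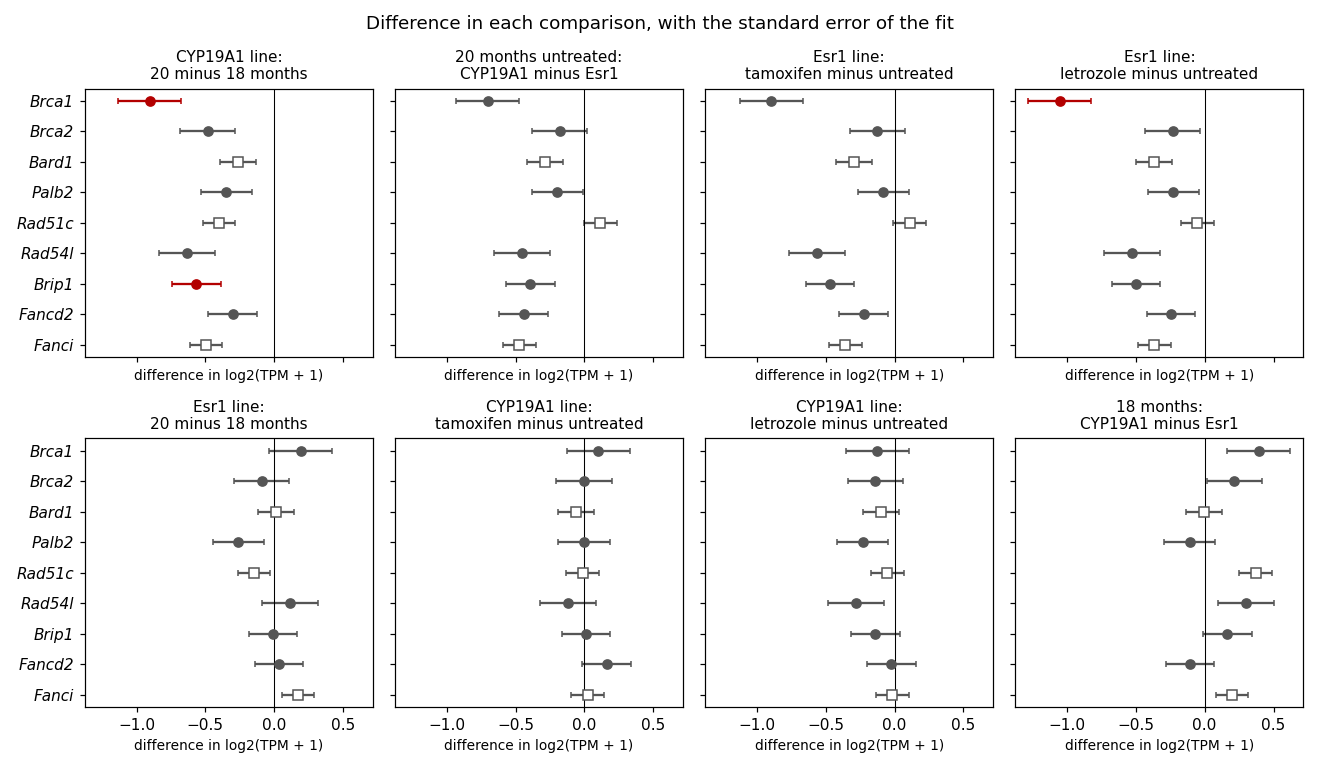
Difference in log2(TPM + 1) of each gene in 8 comparisons, with the standard error of the fit; red marks an adjusted p under 0.05 in the main fit, and open squares are genes tested only under the filter on the mean, whose calls there are not coloured. Brca1 and Brip1 are red for age in the CYP19A1 line and Brca1 for letrozole in the Esr1 line, while all differences for the drugs in the CYP19A1 line lie between -0.28 and 0.16.

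With letrozole in the Esr1 line, Brca1 fell by 1.05 ± 0.23 on the log2(TPM + 1) scale (limma adjusted p = 0.0102), a mean TPM 4.71-fold lower than in untreated mice. It was the only 1 of 6 tested genes that fell, where 5.81% of all genes did, and 3 were lower at an unadjusted p under 0.05, against 14% of all genes. Brip1 was at 0.86, 0.92 and 0.79 TPM untreated and 0.26, 0.32 and 0.36 TPM with letrozole. The groups were far apart in TPM, but the difference of -0.50 ± 0.18 did not pass (adjusted p = 0.0807). Rad54l was at 1.75, 1.48 and 2.48 TPM untreated and 1.00, 1.19 and 0.81 TPM with letrozole (-0.53 ± 0.20, adjusted p = 0.107), also without overlap.

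The Brca1 partner Bard1 was close between untreated Esr1 mice, at 0.53, 0.49 and 0.51 TPM, and was at 0.22, 0.10 and 0.20 TPM with letrozole. Under the filter on the mean its difference was -0.37 ± 0.13 (limma adjusted p = 0.0928). Fanci was at 0.75, 0.69 and 0.80 TPM untreated and 0.29, 0.43 and 0.35 TPM with letrozole (-0.37 ± 0.12, adjusted p = 0.065). Brca1 was the only 1 of the 9 called with this filter, where 4.94% of genes fell. Brca2, Palb2, Fancd2 and Rad51c differed by -0.23, -0.23, -0.25 and -0.05, with adjusted p from 0.403 to 0.836. In all, 5 of the 9 genes were lower without overlap, against 15.6% of genes, and the median was -0.37 beside -0.003 for all genes. Without letrozole replicate 2 the Brca1 adjusted p was 0.0559 at a difference of -1.01, and without the libraries with high ribosomal RNA or low Acta1 it was 0.0141 at -1.06. With muscle, luminal and lymphoid scores as covariates the Brca1 call ended (-0.44, adjusted p = 0.465). With 12 very abundant genes removed and the rest rescaled, Bard1, Brca1, Brip1, Fanci and Rad54l fell.

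Tamoxifen in the Esr1 line gave a Brca1 difference of -0.89 ± 0.23, a mean TPM 3.30-fold lower without overlap, which just missed the threshold (limma adjusted p = 0.0515). No gene of the group was called, where 0.838% of all genes fell, and 3 of 6 were lower at an unadjusted p under 0.05, against 7.83% of all genes. Rad54l was at 0.86, 1.34 and 0.68 TPM (-0.57 ± 0.20, adjusted p = 0.148) and Brip1 at 0.26, 0.43 and 0.34 TPM (-0.47 ± 0.18, adjusted p = 0.164), each below all untreated Esr1 mice. Under the filter on the mean, Fanci (-0.36 ± 0.12, adjusted p = 0.125) and Bard1 (-0.30 ± 0.13, adjusted p = 0.243) were also lower without overlap, 5 of the 9 genes in all, against 6.59% of genes. None was called with this filter either, where 0.701% of genes fell. Brca2 at -0.13, Palb2 at -0.08 and Rad51c at 0.11 were near 0. The median was -0.30 beside 0.051 for all genes. Brca1 passed with median-ratio scaling (limma adjusted p = 0.0103), without untreated replicate 1 (0.0403) and without tamoxifen replicate 2 (0.0418). Without the libraries with high ribosomal RNA or low Acta1 it did not (adjusted p = 0.0595). Nor did Brca1 pass with muscle, luminal and lymphoid scores as covariates (-0.55, adjusted p = 0.119), a fit that moved the median of all genes from 0.051 to 0.228. With only the groups compared fitted the Brca1 adjusted p was 0.226, and without tamoxifen replicate 3 it was 0.218.

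No gene of the group was called between the drugs in the Esr1 line. Tamoxifen minus letrozole gave differences between -0.04 and 0.16 over the 9 genes, where limma called 0.129% of all genes, and none was lower at an unadjusted p under 0.05, against 1.71% of genes. Their comparisons with untreated mice share the same 3 untreated libraries.

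In the CYP19A1 line neither drug gave a call, where limma called 0.0466% of genes lower with tamoxifen and 0.0207% with letrozole, and no gene of the group was lower at an unadjusted p under 0.05, against 1.24% and 3.42% of genes. Brca1 differed by 0.10 ± 0.23 with tamoxifen and by -0.13 ± 0.23 with letrozole (adjusted p = 1 for each). Rad54l was at 0.55, 0.84 and 0.81 TPM with letrozole, below the untreated CYP19A1 mice in all 3, as were 8.52% of genes (-0.28 ± 0.20, adjusted p = 1). Tamoxifen against letrozole gave no call in the group, where 0.248% of genes had one, and Palb2, at 1.08, 1.07 and 1.36 TPM with tamoxifen and 0.78, 0.95 and 0.82 TPM with letrozole, was higher without overlap with tamoxifen, as were 20.1% of genes. The medians of the 9 genes were -0.003 with tamoxifen and -0.13 with letrozole, beside 0.044 and -0.088 for all genes. Between the lines, the Brca1 response differed by 0.99 ± 0.32 for tamoxifen (unadjusted p = 0.00603, limma adjusted p = 0.335) and by 0.92 ± 0.32 for letrozole (unadjusted p = 0.00972, adjusted p = 0.332). No gene of the table passed in either contrast (0% of genes), and both use the untreated libraries of each line.

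At 20 months without a drug, Brca1 was 2.41-fold lower in mean TPM in the CYP19A1 line than in the Esr1 line (-0.70 ± 0.23, limma adjusted p = 0.0775). The 6 libraries did not overlap. No gene was called in the main fit, where 3.16% of all genes were lower, and 4 of 6 were lower at an unadjusted p under 0.05, against 11.1% of all genes. Fanci was called under the filter on the mean, at 0.30, 0.30 and 0.18 TPM against 0.75, 0.69 and 0.80 TPM (-0.47 ± 0.12, adjusted p = 0.027), where 2.81% of genes were. The lines did not overlap for 6 of the 9 genes, all lower in CYP19A1, against 12.5% of genes. Fancd2 (-0.44 ± 0.18, adjusted p = 0.145), Rad54l (-0.45 ± 0.20, adjusted p = 0.202) and Brip1 (-0.39 ± 0.18, adjusted p = 0.199) did not pass. Rad51c lay the other way, at 0.12 (adjusted p = 0.631). With median-ratio scaling Brca1 and Fancd2 passed. With tissue scores as covariates their differences were -0.28 (adjusted p = 0.444) and -0.21 (adjusted p = 0.513). In that covariate fit the median of all genes also moved, from 0.018 to 0.275. Without the libraries with high ribosomal RNA or low Acta1 the Brca1 difference was -0.71 (adjusted p = 0.0828).

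At 18 months no gene of the group was called between the lines, where limma called 1.36% of all genes, and none was lower at an unadjusted p under 0.05, against 2.47% of genes. Brca1 differed by 0.39 ± 0.23 (limma adjusted p = 0.758). Rad51c was at 0.36, 0.50 and 0.39 TPM in Esr1 mice, below all 3 CYP19A1 mice, as were 8.57% of genes, and did not pass under the filter on the mean (0.37 ± 0.12, adjusted p = 0.193). No gene of the group was called between the lines with tamoxifen, with letrozole or averaged over the 4 conditions, where limma called 1.01%, 0.906% and 7.27% of all genes. Lower at an unadjusted p under 0.05 were 0 of 6 with tamoxifen, 0 of 6 with letrozole and 1 of 6 in the average, against 3.54%, 5.59% and 9.07% of genes.

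Across the 24 libraries most of the 9 genes varied together, as a description over libraries that share groups and tissue content. Rad51c was the exception, with a correlation of 0.0692 with Fancd2. Brca1 had a Pearson correlation of 0.918 with Brip1, 0.903 with Bard1, 0.902 with Rad54l and 0.874 with Fanci, but 0.744 with Brca2 and 0.583 with Rad51c. With group means removed these were 0.75, 0.899, 0.825, 0.843, 0.59 and 0.452. The median correlation with the other 8 genes was highest for Rad54l at 0.849 and lowest for Rad51c at 0.493. Rad54l lacks the searched E2F letters in its windows and Rad51c holds them, but whether the letters bear on these correlations was not tested.

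The genes whose levels followed the mean z-score of the 9 most closely were Atad2 (r = 0.972), Lig1 (0.966), Tap1 (0.966), Dnmt1 (0.965), Slfn9 (0.964), Ifi47 (0.964), Trp53 (0.961) and Gabpb1 (0.958), over 24 libraries and 13217 candidate genes. Lig1 is the replicative DNA ligase and Dnmt1 the methyltransferase that copies DNA methylation at replication, while Tap1 carries peptides for antigen presentation and Ifi47 is an interferon-induced GTPase. A high correlation was common, since 15.2% of the candidates reached 0.8.

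**Figure D4:**
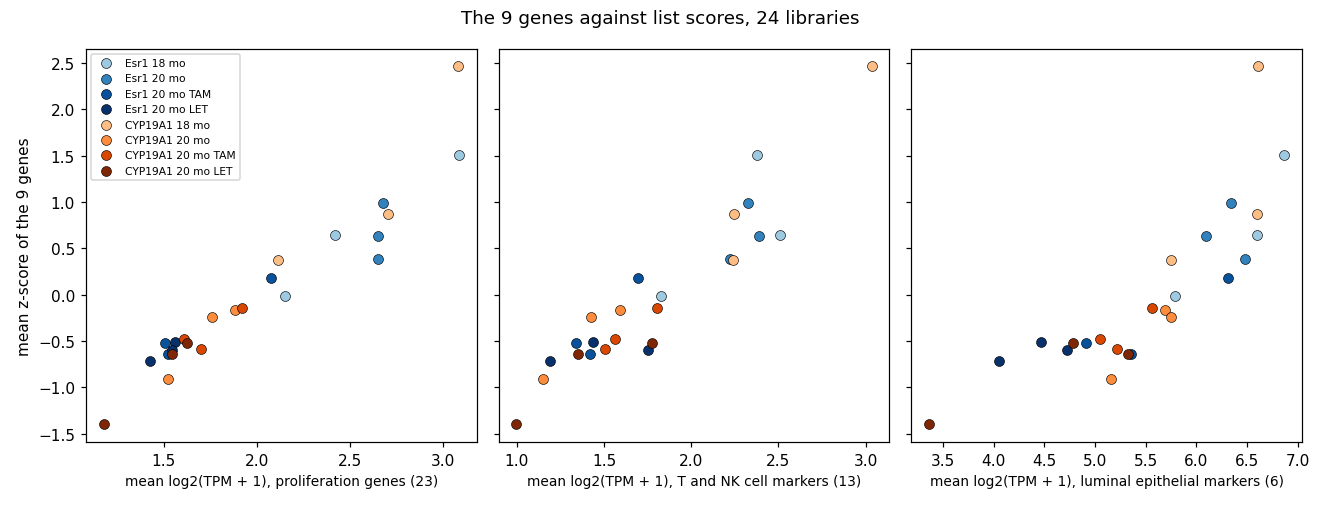
Mean z-score of the 9 genes in each of the 24 libraries (vertical) against the mean log2(TPM + 1) of proliferation genes, T and NK cell markers and luminal epithelial markers (horizontal), coloured by group. The points rise together in each panel, with Pearson r of 0.954, 0.936 and 0.839, and the highest library is replicate 1 of the CYP19A1 mice at 18 months.

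Proliferation genes moved with the group. In the 4 comparisons that follow, age in the CYP19A1 line, letrozole and tamoxifen in the Esr1 line, and the untreated lines, 6.45%, 5.81%, 0.838% and 3.16% of all genes were called lower, and the list counts below are set beside these shares. Of 23, 16 fell with age in the CYP19A1 line, 17 with letrozole and 6 with tamoxifen in the Esr1 line, and 10 were lower in untreated CYP19A1 than Esr1 mice at 20 months. Their medians were -0.93, -1.06, -0.88 and -0.91, beside -0.225, -0.006, 0.051 and 0.018 for all genes. Mki67, a marker of cycling cells, fell from 11.31 ± 1.24 TPM in untreated Esr1 mice to 1.63 ± 0.157 TPM with letrozole (limma adjusted p = 0.00452) and 2.24 ± 1.51 TPM with tamoxifen (adjusted p = 0.0215). The replication clamp gene Pcna fell with age in the CYP19A1 line from 38.16 ± 14.4 to 19.52 ± 2.19 TPM (adjusted p = 0.0149).

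Markers of other cell types moved too, and their part in the results was not tested. Of 13 T and NK cell markers, 10 fell with age in the CYP19A1 line, 7 with letrozole and 2 with tamoxifen in the Esr1 line, and 7 were lower in untreated CYP19A1 than Esr1 mice. Their summed level was 53.1 to 112 TPM in CYP19A1 mice at 18 months and 17.8 to 28.8 TPM at 20 months, and 56.7 to 62.0 TPM in untreated Esr1 mice against 19.0 to 34.8 TPM with letrozole and 22.1 to 32.8 TPM with tamoxifen. None of the 13 was at 0 in any library. All 6 luminal epithelial markers fell with letrozole in the Esr1 line, from a sum of 439 to 592 TPM to 113 to 177 TPM. But limma called none with age in the CYP19A1 line (median -0.68) or with tamoxifen in the Esr1 line (median -0.59). At an unadjusted p under 0.05, 2 and 1 of the 6 were lower in these, against 23.6% and 7.83% of all genes. Of 8 skeletal muscle markers, 2 rose with age in the CYP19A1 line, with a median of 4.62. Over the 24 libraries the muscle score had a Pearson correlation of -0.37 with the 9 genes, the B cell score 0.215 and the macrophage score 0.433. With group means removed these were 0.545, 0.168 and 0.297, so the sign for muscle reversed. No B cell or macrophage marker was called by limma in these 4 comparisons. At an unadjusted p under 0.05 at most 1 of 7 B cell and 0 of 6 macrophage markers were lower in any of them. Of all genes, 7.83% to 23.6% were lower at that threshold. With muscle, luminal and lymphoid scores as covariates, both Brca1 calls ended at the smaller differences given above. The Brip1 difference with age was -0.64 in that fit and also did not pass (limma adjusted p = 0.296).

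Of 36 other genes of homologous recombination tested, 3 fell with age in the CYP19A1 line, 3 with letrozole and 1 with tamoxifen in the Esr1 line, and 2 were lower in untreated CYP19A1 than Esr1 mice. For age and letrozole the shares were near those of all genes. The medians were -0.34, -0.12, -0.10 and -0.18, beside -0.225, -0.006, 0.051 and 0.018 for all genes. At an unadjusted p under 0.05, 14, 10, 7 and 6 of the 36 were lower, against 23.6%, 14%, 7.83% and 11.1% of all genes. Fignl1, an ATPase, was called in all 4, from 1.49 ± 0.0666 TPM in untreated Esr1 mice to 0.393 ± 0.0322 TPM with letrozole (limma adjusted p = 0.0164) and 0.367 ± 0.0839 TPM with tamoxifen (adjusted p = 0.0387). The others were Rad51ap1 (-0.98 ± 0.24) and Mcm8 (-0.47 ± 0.15) with age, the resection nuclease Exo1 (-1.42 ± 0.37) and Rpa3 (-0.51 ± 0.15) with letrozole, and Rad54b (-0.90 ± 0.26) between the lines. Xrcc2 was higher in the CYP19A1 line averaged over the 4 conditions (0.42 ± 0.09, adjusted p = 0.0066).

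In the rest of the Fanconi pathway, 4 of 17 genes fell with age in the CYP19A1 line and 2 with letrozole in the Esr1 line. None was called by limma with tamoxifen or between untreated lines. At an unadjusted p under 0.05, 3 and 1 of 17 were lower in these, against 7.83% and 11.1% of all genes. At that threshold 9 of 17 were lower with age and 4 with letrozole, against 23.6% and 14% of all genes. Fanca, of the core complex, fell in both, from 5.26 ± 2.06 to 2.22 ± 0.550 TPM with age (limma adjusted p = 0.040) and from 3.69 ± 0.265 to 1.27 ± 0.0700 TPM with letrozole (adjusted p = 0.0223). Faap20, Rfwd3 and Fancg also fell with age, and Fancl, the ubiquitin ligase that modifies Fancd2, with letrozole (-0.71 ± 0.20, adjusted p = 0.0301).

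None of 16 genes of end joining, the repair route that needs no template, was called by limma in any of these 4 comparisons, with medians of -0.19 for age and -0.18 for letrozole, beside -0.225 and -0.006 for all genes. At an unadjusted p under 0.05, 4 of 16 were lower with age, near the 23.6% of all genes, and 1 with letrozole, against 14%. In damage signalling 6 of 13 genes fell with age in the CYP19A1 line, 5 with letrozole in the Esr1 line and 0 by limma with tamoxifen. With tamoxifen 5 were lower at an unadjusted p under 0.05, against 7.83% of all genes. Between untreated lines 2 were called lower in CYP19A1 mice. The smallest p was that of H2afx with age (-0.94 ± 0.21, limma adjusted p = 0.0149) and with letrozole (-0.90 ± 0.21, adjusted p = 0.0128). Between untreated lines it was that of Chek2 (-1.41 ± 0.31, adjusted p = 0.0132). Chek1, the checkpoint kinase of replication stress, was at 4.15 ± 3.38 TPM at 18 months and 0.960 ± 0.450 TPM at 20 months in the CYP19A1 line (adjusted p = 0.0289). Trp53 fell from 19.64 ± 2.67 to 10.1 ± 0.642 TPM with letrozole (limma adjusted p = 0.0179). Of 19 regulators of the E2F and DREAM group, 2 fell and 1 rose both with age and with letrozole. The gene that rose was E2f6, a repressor (0.76 ± 0.22 and 0.74 ± 0.22), and those that fell were Rbl1 and Mybl2 with age and Foxm1 and Lin9 with letrozole.

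Of the head-to-head neighbours, Nbr1, at a mean of 52.8 TPM, differed by -0.31 with age in the CYP19A1 line (limma adjusted p = 0.226) and by -0.25 with letrozole in the Esr1 line (adjusted p = 0.372), where Brca1 fell. Dctn5 differed by -0.46 with age (adjusted p = 0.102), and Tex14, at 0.184 TPM, was too low to be tested.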

How the data were processed

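RNA from 24 mammary glands was sequenced after ribosomal RNA depletion with a stranded kit, per the labels' protocols. The authors deposited a table of TPM values, 55487 genes by 24 samples. Per the submitters' processing notes, the genome build was mm10 and the tools included STAR (2.7.9a) and RSEM (1.3.1), beside Trim Galore (0.6.5) and FastQC (0.11.9). Their roles and the annotation are not given in the sources. No reads were recovered, since TPM keeps no depth.

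From these values, log2(TPM + 1) of the 19325 genes that reached 1 TPM in 3 or more samples was fitted with limma 3.58.1 in R 4.3.3 (8 groups, 24 samples, trend and robust settings, two-sided tests). There were 16 comparisons, each with Benjamini-Hochberg adjustment and a threshold of 0.05. Column names matched the sample labels. The fit was tested on simulated data. No 2 libraries were identical. P-values measure the spread between the 3 mice within groups, pooled over the 8 groups. Gene coordinates and promoters are from RefSeq (GRCm38.p6, the mm10 assembly).

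The 9 genes, the pathway lists and the markers were chosen with earlier results of these data known. All 9 are named in the report, with the 8 genes most like the group and head-to-head neighbours within 1000 bases. Genes named from the pathway lists are among up to 4 per list and comparison with the smallest p of those that passed. Not all of those are named. Correlations and counts of lists have no test. Alternatives covered the pseudocount, filter, scaling, covariates, prior, samples fitted, a replicate block and each sample left out. The filter on the mean and the fit without 3 libraries were added after the data were seen.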

Additional observations from a re-analysis of the deposited data

How the results depend on the processing

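The number of called genes among the 9 stayed at 0 under every alternative run in the 12 comparisons other than age in the CYP19A1 line, letrozole or tamoxifen in the Esr1 line, and the untreated lines at 20 months. For age in the CYP19A1 line it was 2 as reported, and 1 with a pseudocount of 0.1, with median-ratio scaling or with the replicate block. It was 0 with tissue covariates or with only the groups compared fitted, 4 with the filter on the mean or without the 3 libraries that stand apart, and between 0 and 3 when each mouse was left out. For letrozole in the Esr1 line it was 1 as reported, 3 with median-ratio scaling, 5 when rescaled without the most abundant genes, 0 with tissue covariates, and 0 to 1 when each mouse was left out. For tamoxifen in the Esr1 line it was 0 as reported, 2 with median-ratio scaling, 4 when rescaled, and 0 to 1 when each mouse was left out. For the untreated lines it was 0 as reported, 1 with no filter or with the filter on the mean, 2 with median-ratio scaling and 3 when rescaled. The cause of these shifts was not tested.

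The Brca1 adjusted p ranged over all alternatives from 0.00551 to 0.456 for age in the CYP19A1 line, from 0.00249 to 0.465 for letrozole and from 0.0103 to 0.226 for tamoxifen in the Esr1 line, always with a lower value. Among the 20 differences of single genes recomputed, each at an unadjusted p under 0.05 as reported, the Brca2 age difference in the CYP19A1 line was the only 1 to change sign, to 0.032 with tissue covariates. Median-ratio scaling moved the median of all genes in that comparison from -0.225 to -0.022.

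Same-numbered mice are different animals, and 19 of 84 same-number pairs had deviations correlated above 0.1, with 11 of 24 samples correlating best with their own number. The mean correlation was near 0 both for same-number pairs (0.00137) and for pairs of other numbers (-0.000559). The replicate block lowered the calls over all genes for age in the CYP19A1 line from 1827 to 1336. Among the 9 genes the replicate block ended the Brip1 call there (adjusted p = 0.0634) and no other.

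TPM keeps no depth, so counting error at levels near 1 TPM could not be given. With 3 mice per group, 1 mouse can decide a call.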

Other observations

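With letrozole in the Esr1 line, 2 of 5 lymph node stroma markers fell and 1 of 3 tested germinal centre B cell markers rose (median -0.40, 2 of 3 lower at an unadjusted p under 0.05), while limma called none of 6 white adipocyte markers (median 1.29, 5 higher at an unadjusted p under 0.05), none of 5 endothelial markers (median 0.44, 1 higher) and none of 6 basal and myoepithelial markers (median -0.51, 3 lower). In that comparison 5.81% of all genes fell, 14% were lower at an unadjusted p under 0.05, and the median was -0.006. The shares of all genes that were higher are not given here, so these counts of higher markers stand without one. Of 6 hormone-sensing luminal markers, 2 were higher and 1 lower in untreated CYP19A1 than in untreated Esr1 mice at 20 months. Their median was 1.06, where 409 of 19325 genes were called higher and 610 lower, with a median of 0.018. With age in the CYP19A1 line 1 of these 6 rose and 1 fell, where 581 genes rose and 1246 fell. The score of these markers had a Pearson correlation of 0.563 with the 9 genes over 24 libraries, that of basal and myoepithelial markers 0.741, that of white adipocyte markers -0.25 and that of endothelial markers 0.0423. These correlations are descriptions over libraries that share groups and tissue content.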
